A study of Mus musculus with 12 samples.

Results

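A set of 39 genes known for their expression in the oocyte was followed in whole ovaries of lethal yellow (LY) and black mice. A gene was included when a probe of the array was annotated with its symbol and no other, and a gene with several such probes was represented by the brightest. By this rule 35 of the 39 genes were measured, among 18069 genes with a probe of their own on the array. Nlrp4a, Nlrp4c, Obox1 and H1foo were not matched. Of the 35 genes, 34 passed a filter on dim probes, which asked for a group mean of 0.2 units or more in 1 or more groups, where 1 unit is the median signal of an array and 0.2 units is the limit of sensitivity. All 34 met this limit in each of the 4 groups, so none entered through 1 group alone. The dimmest of them was Nlrp4f, at 0.222 ± 0.106 units (SD, n = 3) in 90-day black mice. Nlrp4e, read between 0.0412 and 0.221 units, did not pass.

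The black mice carried the a/a genotype and the LY mice Ay/a, both spelled C56BL/6J in the sample labels, where the methods give C57BL/6J for black and C57BL/6 for LY mice. The Ay allele is a deletion that places the agouti gene under a promoter active in most tissues, and LY mice carry 1 copy of it in every cell. The groups were 180-day old black, 180-day old LY, 90-day old black and 90-day old LY females, with 3 mice per group, 1 array per mouse and no pooling. All mice of all groups had received the GnRH antagonist Antide at 10 μg/g body weight on days 1 and 4 and then eCG, a gonadotropin that drives follicle growth, at 1 IU/5 g body weight, and ovaries were taken on day 7, 36 h after eCG, and trimmed. The comparison of the genotypes at each age asks whether ovarian transcripts differ in LY mice that are obese (180 days) or still close to black mice in body weight (90 days). Agouti itself separated the genotypes as labelled, at 0.294 ± 0.109 and 103 ± 7.36 units (SD, n = 3) in 180-day old black and LY mice and at 0.295 ± 0.0165 and 97.2 ± 1.79 units in 90-day old mice. On each array 80.8% to 83.3% of the probes lay at or above 0.2 units, and arrays correlated at 0.970 to 0.987 within a group, 0.963 to 0.984 between genotypes of an age and 0.918 to 0.938 between ages. The paper describes the 180-day arrays as the initial experiments and the 90-day arrays as a later set. An effect of age therefore cannot be told apart from one of the array set.

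An oocyte grows inside its follicle in contact with granulosa cells, coats itself with the zona pellucida and stores the proteins and RNAs that carry the embryo through its first divisions. Transcription factors such as FIGLA and NOBOX switch on this programme in early follicles, the secreted factors GDF9 and BMP15 act on the surrounding granulosa cells, and maternal effect genes such as Nlrp5 and Zar1 are needed after fertilization. A whole ovary is a mixture in which oocytes are few, and in such RNA fewer oocytes and less RNA per oocyte cannot be told apart.

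FIGLA is a basic helix-loop-helix protein that binds E-boxes, so the promoters of the set were read for the letters CANNTG, and for TAATTG and TAATTA, core letters recognized by homeodomain proteins, on both strands. RefSeq promoters (GRCm38.p6) were matched for 26 of the 34 genes, and the 250 bases before the transcription start were used. Mos, Zp1, Dppa3, Nlrp14, Zp2, Npm2, Bcl2l10 and Gdf9 had no entry. The E-box letters occurred in 24 of the 26 genes (92.3%), against 69.3% of 27025 genes and 66.2% of 32851 promoters with a window of the same length. TAATTG was present in Nlrp9b and Ooep (7.69%, against 8.30% of all genes and 7.17% of all promoters), and TAATTA in Bmp15 and Nlrp5 (7.69%, against 5.65% and 4.84%). TAATTG and TAATTA share all but their last letter, and a match describes letters of the sequence and is not a binding site. The 5 promoters shown belong to genes with lower LY values at 180 days (Zp3, Ooep and Gtsf1), to Figla and to a gene with a difference near 0 (Padi6). Capitals mark the matches, 5′ to 3′ on the strand of the gene.
Zp3, chr5:135979855-135980104, plus strand: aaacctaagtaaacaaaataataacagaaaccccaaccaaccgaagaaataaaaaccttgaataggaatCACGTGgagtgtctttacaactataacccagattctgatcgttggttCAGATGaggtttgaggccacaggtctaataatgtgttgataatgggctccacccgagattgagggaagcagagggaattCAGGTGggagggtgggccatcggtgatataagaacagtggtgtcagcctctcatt
Ooep, chr9:78378589-78378838, minus strand: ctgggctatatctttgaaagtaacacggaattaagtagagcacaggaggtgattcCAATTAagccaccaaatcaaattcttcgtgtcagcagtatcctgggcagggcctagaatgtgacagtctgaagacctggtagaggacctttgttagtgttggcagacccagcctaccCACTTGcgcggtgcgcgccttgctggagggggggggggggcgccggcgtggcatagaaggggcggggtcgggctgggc
Gtsf1, chr15:103430428-103430677, minus strand: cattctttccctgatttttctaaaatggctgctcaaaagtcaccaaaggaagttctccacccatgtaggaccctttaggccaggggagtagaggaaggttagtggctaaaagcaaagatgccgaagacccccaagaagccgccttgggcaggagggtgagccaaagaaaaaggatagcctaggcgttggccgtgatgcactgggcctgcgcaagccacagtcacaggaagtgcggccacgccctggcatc
Figla, chr6:86016941-86017190, plus strand: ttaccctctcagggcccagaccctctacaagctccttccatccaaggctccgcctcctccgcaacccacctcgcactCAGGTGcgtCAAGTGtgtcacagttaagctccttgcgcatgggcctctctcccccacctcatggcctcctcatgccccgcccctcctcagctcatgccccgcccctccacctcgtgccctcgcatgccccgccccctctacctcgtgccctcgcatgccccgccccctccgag
Padi6, chr4:140742644-140742893, minus strand: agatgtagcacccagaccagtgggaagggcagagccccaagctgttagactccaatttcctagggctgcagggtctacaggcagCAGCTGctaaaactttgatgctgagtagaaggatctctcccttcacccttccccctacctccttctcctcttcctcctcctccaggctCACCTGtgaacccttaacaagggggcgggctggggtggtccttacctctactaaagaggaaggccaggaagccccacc
Zp3, the gene with the smallest adjusted p of the set at 180 days, held E-box letters that began at bases -181, -134 and -55 from the start site. Ooep held 1 at -78 and a TAATTG, read on the opposite strand as CAATTA, at -195. Gtsf1 and Lhx8 were the genes of the 26 without E-box letters in this window. Figla held 2 at -173 and -164, and Padi6, with a log2 difference of 0.06 at 180 days, held 2 at -166 and -78.

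In 180-day old LY ovaries the oocyte genes tended to read lower than in black ovaries, and in 90-day old LY ovaries they tended to read slightly higher, but no single gene of the set passed the test at either age. The median log2 difference of LY from black mice over the 34 genes was -0.49 at 180 days, with a range from -0.86 for Dazl to 0.11 for Pou5f1, where the median over all 31359 probes tested was 0.03 and their 5th to 95th percentiles ran from -0.45 to 0.40. At 90 days the median of the set was 0.16, with a range from -0.19 to 0.67, against a median of 0.00 over all probes. The 90-day value depended on single black mice, and came to 0.29 without 90-day black replicate 2 and to 0.09 without replicate 3. These medians are descriptions of the set.

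**Figure D1:**
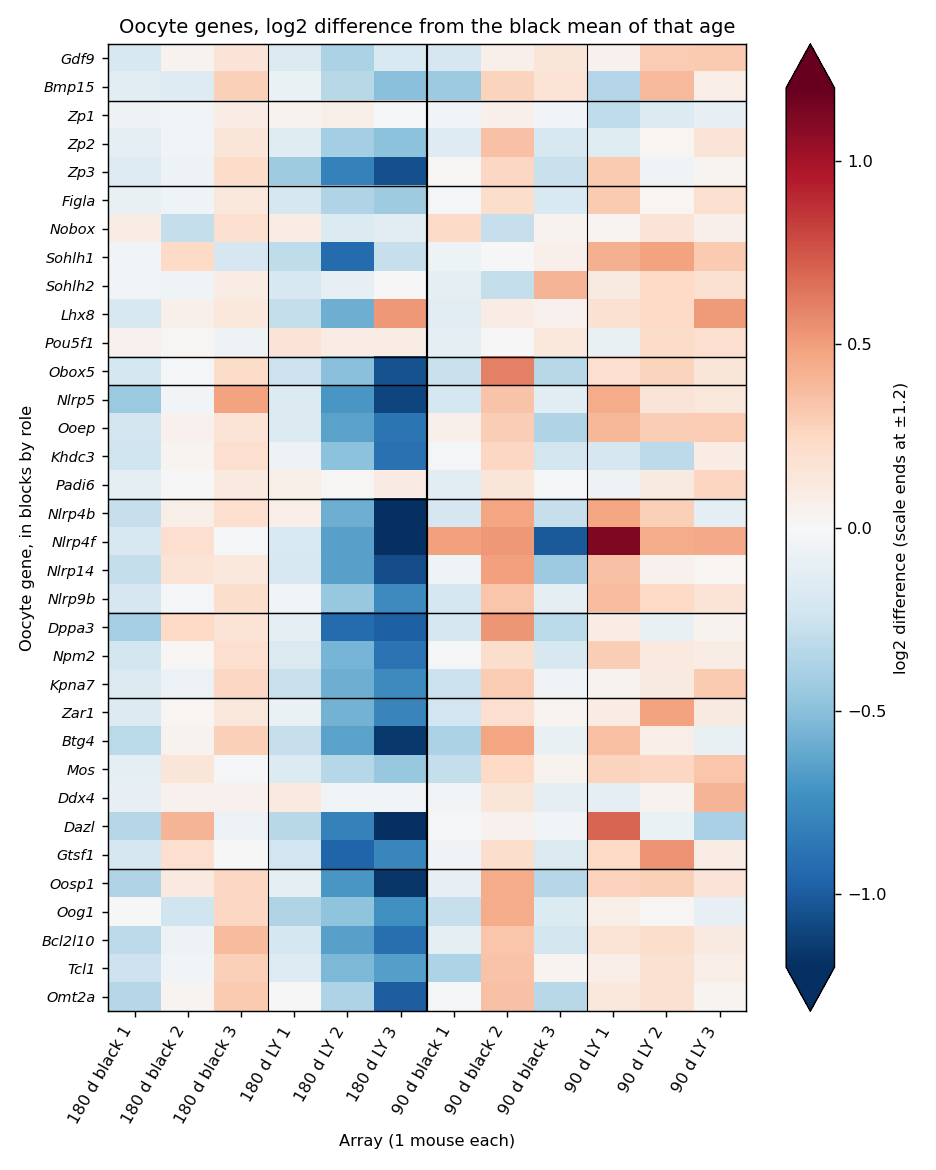
Log2 difference of each of the 34 oocyte genes (rows, in blocks by role) on each of the 12 arrays (columns, 1 mouse each) from the mean of the black mice of the same age. The columns of 180-day LY mice 2 and 3 are blue for most genes, with medians of -0.55 and -0.77, whereas 180-day LY mouse 1 lies near 180-day black mouse 1 (-0.17 and -0.19).

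At 180 days 0 of the 34 genes had a limma adjusted p under 0.05 in either direction, where 0.0415% of all probes were called higher and 0.00319% lower. By the unadjusted limma p under 0.05, 20 of the 34 genes were lower in LY mice, against 4.91% of all probes, and 0 were higher, against 7.05%. The estimate was lower for 30 of the 34 genes, against 44.1% of all probes, and higher for 4, against 55.9%. The methods' t-test at an unadjusted p under 0.05 called 5 genes lower and 1 higher at 180 days, and 0 after the Benjamini-Hochberg adjustment. Its unadjusted counts are given without the share of all probes and are not read as a result about the set. The count of 20 rested on single mice. It was 4 without 180-day black replicate 3 (4.24% of all probes) or without 180-day LY replicate 3 (3.46%). It was 8 without 180-day black replicate 2 (3.63%) or without 180-day LY replicate 2 (4.06%). It rose to 23 without 180-day black replicate 1 (4.12%) and to 24 without 180-day LY replicate 1 (5.92%).

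At 90 days limma again called 0 genes of the set in either direction, where 0.00638% of all probes were called higher and 0.0383% lower. Sohlh1 was the 1 gene higher and Zp1 the 1 gene lower by the unadjusted limma p under 0.05, against 5.21% and 8.06% of all probes. The estimate was higher for 31 of the 34 genes, against 49.1% of all probes, and lower for Zp1, Khdc3 and Oog1, a direction that 50.9% of all probes took. The methods' t-test at an unadjusted p under 0.05 called 1 gene higher, again without the share of all probes, and 0 after the Benjamini-Hochberg adjustment. The change of the genotype difference between the ages, tested as an interaction, was called for 0 genes of the set and for 0.00% of all probes. By the unadjusted limma p under 0.05 the interaction was lower, meaning a difference of LY from black that was lower at 180 than at 90 days, for 15 of the 34 genes against 4.10% of all probes, and higher for 0 against 8.01%. Its estimate was lower for 33 of the 34 genes, against 45.9% of all probes, and higher for Zp1 alone, against 54.1%.

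**Figure D2:**
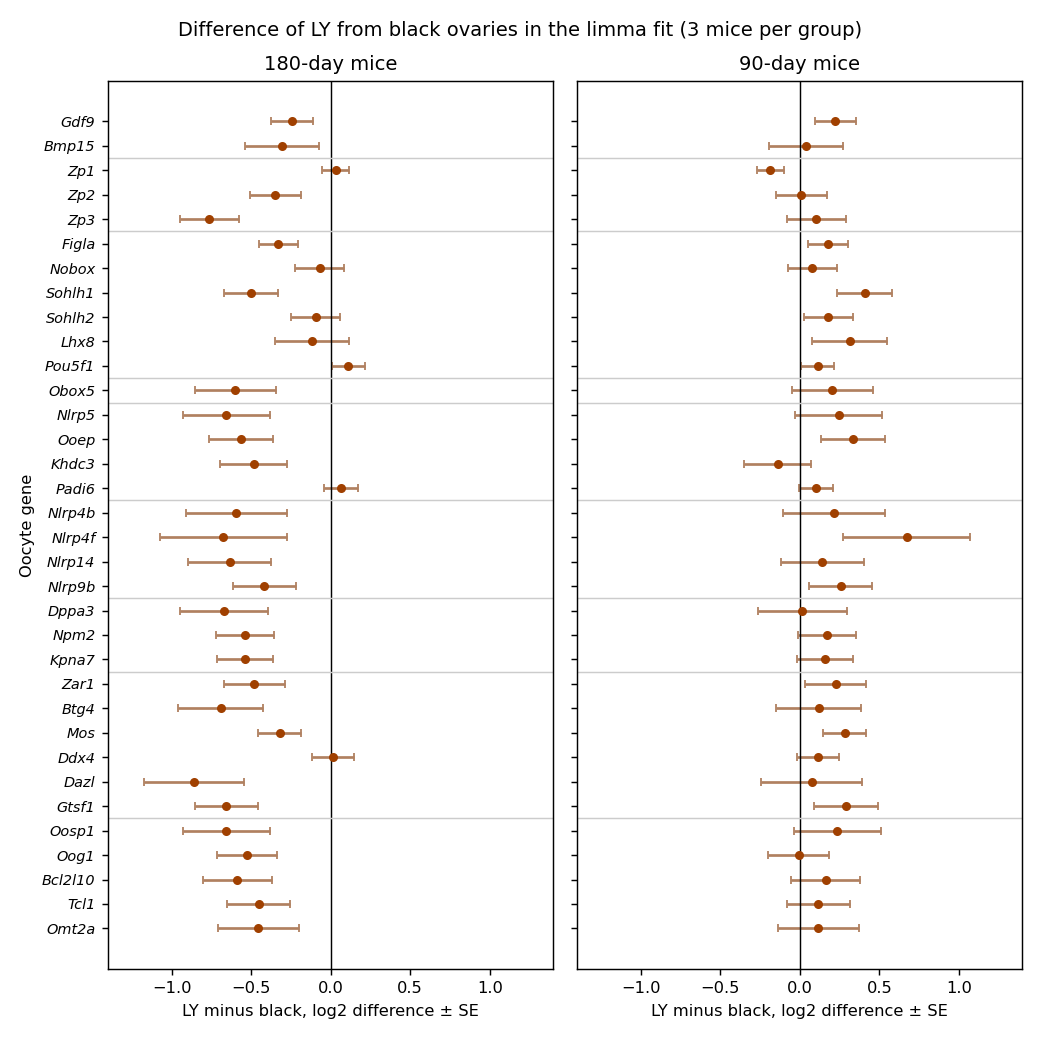
Log2 difference of LY from black ovaries ± SE in the limma fit for each oocyte gene at 180 days (left) and 90 days (right), with 3 mice per group. The estimates lie left of 0 for 30 of the 34 genes at 180 days and right of 0 for 31 of the 34 at 90 days, and none passed the adjusted threshold.

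The secreted factors GDF9 and BMP15 are the signals by which the oocyte directs granulosa cells. Gdf9 read 4.21, 4.94 and 5.36 units in 180-day black replicates 1, 2 and 3 and 4.28, 3.70 and 4.23 units in the LY mice of that age. At 90 days it read 5.22, 6.27 and 6.66 units in black mice and 6.22, 7.45 and 7.49 units in LY mice. The genotypes overlapped at both ages, with log2 differences of -0.24 ± 0.13 (SE, limma adjusted p = 0.495) and 0.22 ± 0.13 (adjusted p = 0.500). Bmp15 read 1.70, 1.67 and 2.26 units in 180-day black mice and 1.75, 1.47 and 1.31 units in LY mice. It read 2.44, 3.97 and 3.70 units in 90-day black mice and 2.58, 4.32 and 3.49 units in LY mice. Its genotypes overlapped at both ages, with log2 differences of -0.31 ± 0.23 (SE, limma adjusted p = 0.640) and 0.04 ± 0.23 (adjusted p = 0.966). A second, dimmer probe of Bmp15 gave -0.61 ± 0.18 (limma adjusted p = 0.247) and 0.17 ± 0.18 (adjusted p = 0.730).

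The zona pellucida proteins form the coat of the oocyte, and the transcripts of the 3 zona genes did not run together. Zp3, which encodes a glycoprotein of the coat long studied as a sperm receptor, read 27.96, 29.9 and 36.4 units in 180-day black mice and 23.2, 17.8 and 15.0 units in LY mice. All 3 LY mice lay below all 3 black mice, with a log2 difference of -0.76 ± 0.19 (SE, limma adjusted p = 0.172), the smallest adjusted p of the set at that age. In 90-day old mice Zp3 read 23.3, 27.3 and 19.2 units in black and 28.7, 22.4 and 23.5 units in LY mice, which overlapped (0.10 ± 0.19, limma adjusted p = 0.857). The interaction for Zp3 was -0.87 ± 0.26 (SE, limma adjusted p = 0.216). Zp2 read 5.39, 5.70 and 6.42 units in 180-day black mice and 5.27, 4.39 and 4.13 units in LY mice, again without overlap, with a smaller difference of -0.35 ± 0.16 (limma adjusted p = 0.424). Its 90-day values of 5.48, 7.81 and 5.35 units in black and 5.52, 6.21 and 6.83 units in LY mice overlapped. Zp1 went with neither. It read 6.18, 6.33 and 6.89 units in 180-day black mice and 6.63, 6.78 and 6.40 units in LY mice, which overlapped (0.03 ± 0.08, limma adjusted p = 0.918). At 90 days Zp1 read 7.60, 8.14 and 7.64 units in black mice and 6.31, 6.97 and 7.28 units in LY mice. There the LY mice all lay below the black mice, with a log2 difference of -0.19 ± 0.08 (limma adjusted p = 0.375).

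**Figure D3:**
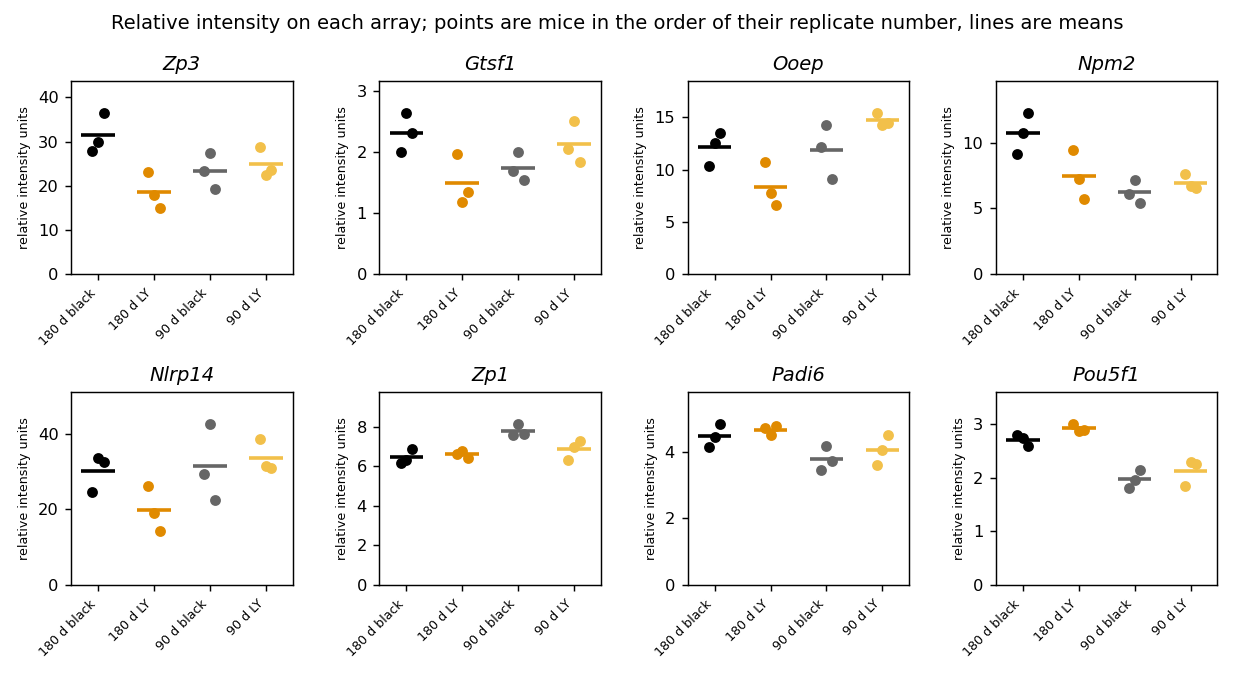
Relative intensity in units of the array median (vertical axis, from 0) of 8 oocyte genes on each array, with each point a mouse and each line a group mean of 3 mice. Zp3 and Gtsf1 separate the genotypes at 180 days without overlap (Zp3 at 27.96 to 36.4 units in black and 15.0 to 23.2 units in LY mice), whereas Zp1 and Padi6 overlap at that age.

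The transcription factors had the smallest median log2 difference of the roles at 180 days, at -0.11 over 6 genes. Figla, which switches on the zona genes, read 1.51, 1.54 and 1.76 units in 180-day black mice and 1.39, 1.25 and 1.19 units in LY mice. The LY mice lay below the black mice without overlap (-0.33 ± 0.12, limma adjusted p = 0.334). Figla read 1.06, 1.25 and 0.950 units in 90-day black mice and 1.34, 1.10 and 1.24 units in LY mice, which overlapped (0.18 ± 0.12, limma adjusted p = 0.575). Nobox, a homeobox factor of early follicles, read 1.05, 0.809 and 1.13 units in 180-day black mice and 1.05, 0.878 and 0.898 units in LY mice. At 90 days Nobox read 1.51, 1.07 and 1.34 units in black and 1.32, 1.44 and 1.34 units in LY mice. Its genotypes overlapped at both ages, with log2 differences of -0.07 ± 0.15 (limma adjusted p = 0.895) and 0.08 ± 0.15 (adjusted p = 0.870).

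Sohlh1, a basic helix-loop-helix factor of primordial and primary follicles, was dim and changed order between the ages. It read 0.462, 0.560 and 0.411 units in 180-day black mice and 0.384, 0.249 and 0.392 units in LY mice, with every LY mouse below every black mouse. In 90-day old mice it read 0.252, 0.263 and 0.274 units in black and 0.353, 0.367 and 0.326 units in LY mice, with every LY mouse above. The log2 differences were -0.50 ± 0.17 (limma adjusted p = 0.3003) and 0.41 ± 0.17 (adjusted p = 0.345). Their difference, the interaction, was -0.91 ± 0.24 (limma adjusted p = 0.178). Its partner Sohlh2 and Lhx8, another homeobox factor, gave -0.09 and -0.12 at 180 days and 0.18 and 0.31 at 90 days. Pou5f1, the pluripotency factor that growing oocytes also express, was the only member whose LY mice all lay above the black mice at 180 days, at 2.88 to 3.00 units against 2.59 to 2.80 units (0.11 ± 0.10, limma adjusted p = 0.712). Obox5, an oocyte homeobox gene, gave -0.60 ± 0.26 at 180 days (limma adjusted p = 0.395), without overlap, and a probe annotated with both Obox1 and Obox2 gave -0.45 ± 0.21 (limma adjusted p = 0.438).

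The subcortical maternal complex is a protein assembly under the oocyte membrane that the early embryo needs, and 3 of its 4 measured genes read lower in 180-day old LY mice. Ooep, which encodes one of its core proteins, read 10.4, 12.5 and 13.5 units in 180-day black mice and 10.7, 7.73 and 6.56 units in LY mice. LY replicate 1 lay within the black range, and the log2 difference was -0.56 ± 0.20 (limma adjusted p = 0.311). Ooep read 12.2, 14.3 and 9.10 units in 90-day black mice and 15.4, 14.3 and 14.4 units in LY mice. There each LY mouse lay above each black mouse by the unrounded values (0.33 ± 0.20, limma adjusted p = 0.509), and the interaction was -0.90 ± 0.28 (limma adjusted p = 0.230). Nlrp5 and Khdc3, which encode other proteins of the complex, gave -0.66 ± 0.27 and -0.48 ± 0.21 at 180 days. Padi6, an enzyme that is found in the cytoplasmic lattices of the oocyte, read 4.15, 4.45 and 4.85 units in 180-day black mice and 4.71, 4.52 and 4.80 units in LY mice. Its groups overlapped, and the 95% interval of its difference ran from -0.17 to 0.30.

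The other Nlrp genes, a family with many oocyte members, had log2 differences between -0.68 and -0.42 at 180 days for all 4 tested. Nlrp14 read 24.5, 33.5 and 32.6 units in 180-day black mice and 26.2, 19.1 and 14.4 units in LY mice. In 90-day old mice it read 29.2, 42.6 and 22.4 units in black and 38.7, 31.3 and 30.8 units in LY mice. Its genotypes overlapped at both ages, with differences of -0.63 ± 0.26 (limma adjusted p = 0.378) and 0.14 ± 0.26 (adjusted p = 0.863). Nlrp4f read 0.447, 0.586 and 0.503 units in 180-day black mice and 0.449, 0.324 and 0.222 units in LY mice. At 90 days it read 0.280, 0.286 and 0.0989 units in black mice, the last of them under the limit of sensitivity, and 0.434, 0.271 and 0.273 units in LY mice. Nlrp4f thus overlapped at both ages, and its interaction, although the lowest of the set at -1.35 ± 0.56 (limma adjusted p = 0.371), rests partly on a value under that limit. Nlrp9b gave -0.42 ± 0.20 and Nlrp4b -0.59 ± 0.32 at 180 days, and a dimmer Nlrp4b probe gave -0.16 ± 0.15. Nlrp4 genes resemble each other in sequence, and a probe annotated with Nlrp4e, Nlrp4a and Nlrp4c together gave -0.05 ± 0.14, so signal shared between these copies is uncertain.

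Among the stored chromatin and nuclear factors all 3 genes had an unadjusted limma p under 0.05 for a lower value in 180-day old LY mice, against 4.91% of all probes, and they belong to the 20 genes of the set whose count fell to 4 without single mice. Npm2, a chaperone that remodels sperm chromatin, read 9.17, 10.8 and 12.2 units in 180-day black mice and 9.45, 7.24 and 5.75 units in LY mice. LY replicate 1 lay above the lowest black mouse (-0.54 ± 0.18, limma adjusted p = 0.295). At 90 days Npm2 read 6.08, 7.17 and 5.40 units in black and 7.59, 6.71 and 6.58 units in LY mice, which overlapped. Kpna7, an oocyte importin, read 1.24, 1.33 and 1.67 units in 180-day black mice and 1.16, 0.935 and 0.828 units in LY mice, without overlap. Its log2 difference was -0.54 ± 0.18 (limma adjusted p = 0.282), and its dimmer probe gave -0.82 ± 0.20 (limma adjusted p = 0.168). At 90 days Kpna7 read 0.864, 1.28 and 1.00 units in black and 1.07, 1.12 and 1.29 units in LY mice, which overlapped. Dppa3, also known as Stella, which protects DNA methylation in the zygote, gave -0.67 ± 0.28 at 180 days and 0.02 ± 0.28 at 90 days.

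The RNA and meiotic regulators control storage, translation and decay of maternal RNA and the arrest of meiosis, and 5 of the 6 read lower in 180-day old LY mice. Gtsf1, a small zinc finger protein of the piRNA pathway, read 1.99, 2.63 and 2.31 units in 180-day black mice and 1.96, 1.18 and 1.34 units in LY mice. No LY mouse reached the black range (-0.66 ± 0.20, limma adjusted p = 0.254). Gtsf1 read 1.68, 2.00 and 1.53 units in 90-day black mice and 2.04, 2.51 and 1.84 units in LY mice, which overlapped (0.29 ± 0.20), and the interaction was -0.95 ± 0.28 (limma adjusted p = 0.210). Mos, the kinase that holds the egg in meiotic arrest, read 0.632, 0.762 and 0.674 units in 180-day black mice and 0.611, 0.544 and 0.502 units in LY mice, all below. It read 0.574, 0.825 and 0.717 units in 90-day black mice and 0.842, 0.827 and 0.880 units in LY mice, all above, and the interaction was -0.60 ± 0.19 (limma adjusted p = 0.234). Zar1, an RNA-binding maternal effect factor, read 10.6, 12.1 and 13.0 units in 180-day black mice and 11.2, 8.004 and 6.85 units in LY mice. LY replicate 1 again lay within the black range (-0.48 ± 0.19, limma adjusted p = 0.363). Zar1 read 5.73, 7.71 and 6.86 units in 90-day black mice and 7.13, 9.41 and 7.23 units in LY mice, which overlapped (0.23 ± 0.19, limma adjusted p = 0.650). Btg4, which recruits the deadenylase that clears maternal RNA, gave -0.69 ± 0.27, and Dazl, a translational regulator of germ cells, -0.86 ± 0.32 at 180 days. Ddx4, the germ cell helicase known as Vasa, read 0.761 to 0.845 units in 180-day black mice and 0.794 to 0.885 units in LY mice (0.02 ± 0.13, with a 95% interval from -0.27 to 0.30).

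The other oocyte proteins lay close together at 180 days, with log2 differences from -0.66 to -0.45 for all 5. Omt2a, the brightest of them, read 7.60, 9.85 and 12.01 units in 180-day black mice and 9.63, 7.46 and 4.86 units in LY mice, which overlapped (-0.45 ± 0.26, limma adjusted p = 0.517). Its 90-day values of 7.46, 9.66 and 6.00 units in black and 8.27, 8.61 and 7.74 units in LY mice overlapped too. Oosp1, a secreted oocyte protein, gave -0.66 ± 0.27, Bcl2l10, an oocyte member of the BCL2 family, -0.59 ± 0.22, Oog1 -0.53 ± 0.19 and Tcl1, a cofactor of the AKT kinase, -0.45 ± 0.20. Among these only Oog1 separated the genotypes, at 0.413 to 0.537 units in LY and 0.582 to 0.819 units in black mice. A probe annotated with both Gm2042 and Oog1 gave -0.65 ± 0.23. H1foo was not matched by its symbol, but its gene carries the current symbol H1f8, whose probe is not counted in the set. H1f8, the linker histone of the oocyte, read 18.4 ± 2.79 units in black and 12.6 ± 3.48 units in LY mice at 180 days (SD, n = 3; -0.57 ± 0.20, limma adjusted p = 0.303).

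Counted over mice, 9 of the 34 genes had all 3 LY mice below all 3 black mice at 180 days, against 8.32% of all probes, and 1 had them above, against 14.2%. The 9 were Zp2, Zp3, Figla, Sohlh1, Obox5, Kpna7, Mos, Gtsf1 and Oog1. At 90 days 1 gene lay below without overlap, against 9.43% of all probes, and 4 lay above, against 6.81%, namely Sohlh1, Lhx8, Ooep and Mos. Sohlh1 and Mos did both in opposite directions, against 0.415% of all probes. The count of 9 depended on 2 mice, and came to 25 without 180-day black replicate 1 (12.1% of all probes) and to 26 without 180-day LY replicate 1 (14.6%).

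The mice of 1 group differed from each other in the same sense for most of the genes. Black replicate 1 was the lowest of the 180-day black mice for 28 of the 34 genes and black replicate 3 the highest for 25. Among the 180-day LY mice replicate 1 was the highest for 29 genes and replicate 3 the lowest for 26. Set against the black mean of the age, the median over the genes was -0.19, 0.02 and 0.16 in the 180-day black mice and -0.17, -0.55 and -0.77 in the LY mice. LY replicate 1 thus lay within the range of the black mice, and LY replicates 2 and 3 lay below it. In 90-day old mice the medians were -0.12, 0.26 and -0.13 in black mice and 0.17, 0.19 and 0.13 in LY mice, where black replicate 2 was the highest of its group for 29 of the 34 genes. LY values at 90 days were close to each other and lay within the black range.

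This co-variation was described by the correlation of each gene, after removal of the group means, with the median of the other genes of the set across the 12 arrays. The 12 points share the array scaling, and 1 RNA sample stands behind all genes of a point. The median Pearson's r was 0.82 and the median Spearman's rho 0.74, and the median r was 0.73 without the 2 arrays farthest from the median. An r of at least 0.8 was found for 18 of the 34 genes, and for 1.03% of the 30795 probes without a missing value when set against the median profile of the set. Without those 2 arrays the 18 became 13. The highest values were those of Oosp1 (0.97), Nlrp9b (0.97) and Bcl2l10 (0.96). The 5 genes under 0.3 were all transcription factors, namely Sohlh1 (0.00), Pou5f1 (-0.04), Nobox (-0.06), Lhx8 (-0.26) and Sohlh2 (-0.48), whereas Figla, the remaining transcription factor, reached 0.74. Over the 12 arrays Sohlh1, Nobox, Lhx8 and Sohlh2 had means of 0.358, 1.15, 0.780 and 0.922 units. Pou5f1, at 2.43 units, had an SD of 0.11 log2 after removal of the group means. The dimmest of the 18 genes with r of at least 0.8 was Kpna7, at 1.15 units. The part of signal level and spread in r was not tested. Zona genes ranged from 0.46 for Zp1 to 0.85 for Zp3, and Gdf9 (0.33) and Bmp15 (0.55) stood low. Without the 2 arrays Ddx4 (0.20), Padi6 (0.26) and Gdf9 (0.26) joined those under 0.3, which made 8. The 18 genes with r of at least 0.8 had log2 differences at 180 days from -0.76 to -0.35, with a median of -0.58, and the other 16 ranged from -0.86 to 0.11, with a median of -0.27.

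**Figure D4:**
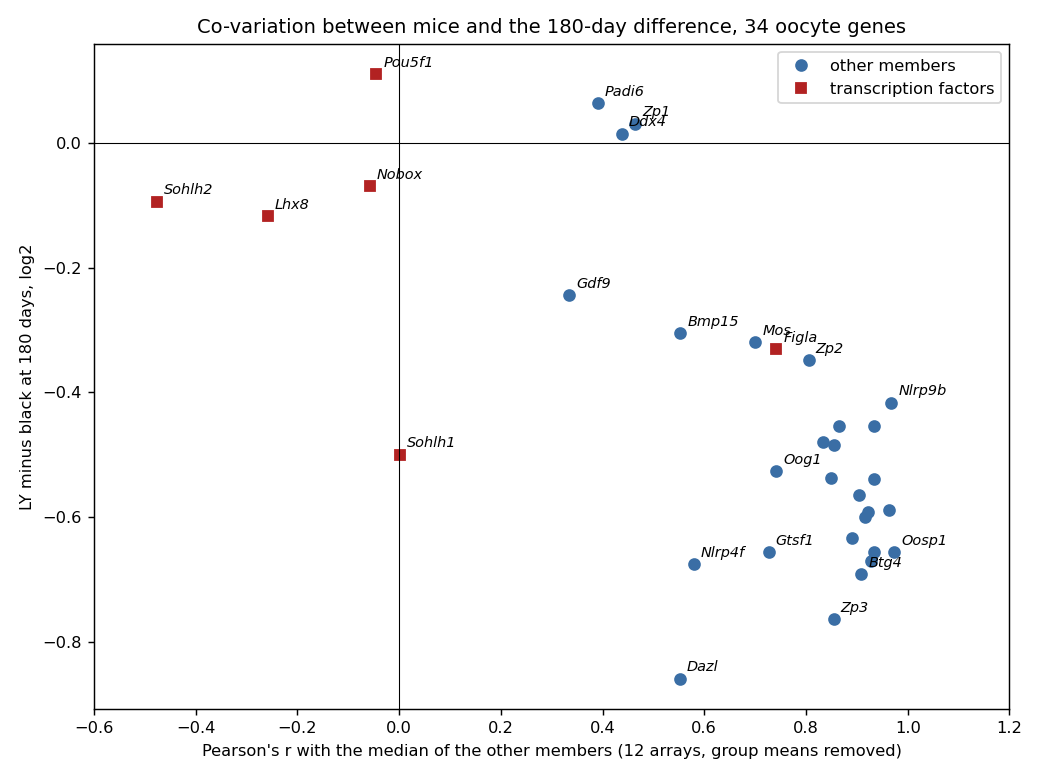
Pearson's r of each of the 34 oocyte genes with the median of the other genes across 12 arrays, group means removed (horizontal axis), against the log2 difference of LY from black mice at 180 days (vertical axis). Red squares are the 6 transcription factors, of which 5 lie under 0.3 and Figla at 0.74, and the 18 genes at 0.8 or above all have differences from -0.76 to -0.35.

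Between the ages, over both genotypes, limma called 8 of the 34 genes higher at 180 than at 90 days, against 33.8% of all probes, and 9 lower, against 25.4%. The median difference of the set was 0.04 and that of all probes 0.06. Bmp15 was the gene with the largest fall, by 1.00 ± 0.16 on the log2 scale (limma adjusted p = 0.00037), and its 6 arrays at 180 days, at 1.31 to 2.26 units, all lay below the 6 at 90 days, at 2.44 to 4.32 units. Its second probe fell by 1.61 ± 0.13 (limma adjusted p = 1.9e-06). Gdf9 was lower by 0.56 ± 0.09 (limma adjusted p = 0.00040), so both secreted factors were lower on the 180-day arrays. Dazl, Ddx4, Nobox, Ooep, Mos, Sohlh2 and Zp1 were the other genes called lower, with differences from -0.69 to -0.16. Lhx8 had the largest rise (0.82 ± 0.17, limma adjusted p = 0.0015), and its second probe rose by 0.68 ± 0.15 (limma adjusted p = 0.0031). Btg4, Zar1, Pou5f1, Npm2, Sohlh1, Figla and Padi6 were also called higher, with differences from 0.23 to 0.59, and Pou5f1 had its 6 arrays at 180 days, at 2.59 to 3.00 units, above the 6 at 90 days, at 1.81 to 2.29 units. Groups without overlap were thus found for 2 genes in the lower direction, Bmp15 and Ddx4, against 15.8% of all probes, and for 1 in the higher, against 20.2%. These differences cannot be told apart from those between the array sets.

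Further oocyte genes were listed separately. Of 28 tested, 26 had lower estimates in LY mice at 180 days (44.1% of all probes), with a median of -0.29, and 8 had an unadjusted limma p under 0.05 for a lower value (4.91% of all probes). At 90 days their median was 0.09, with 16 higher and 12 lower estimates, where 49.1% of all probes were higher. The 3 with the smallest p at 180 days were Uchl1, a ubiquitin hydrolase (-0.57 ± 0.14, limma adjusted p = 0.168), Oas1d, an oocyte protein of the oligoadenylate synthetase family (-0.66 ± 0.18, limma adjusted p = 0.204) and Rfpl4 (-0.46 ± 0.12, limma adjusted p = 0.204). Their per-array medians against the black mean were -0.08, -0.07 and 0.15 in 180-day black mice and -0.11, -0.34 and -0.45 in LY mice. Genes of meiotic prophase, most of them for synapsis and recombination, steps that mouse oocytes complete around birth, had a median of 0.06 at 180 days over 11 genes. At 90 days their median was 0.21, with 9 of 11 estimates higher (49.1% of all probes) and 2 higher at an unadjusted limma p under 0.05 (5.21%). Mael, a piRNA pathway gene, was the 1 of them lower at 180 days at an unadjusted limma p under 0.05 (-0.62 ± 0.20, limma adjusted p = 0.270). None of these genes was called at either age.

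The receiving side of the oocyte signals was read in 11 receptors, SMADs and the processing enzyme of GDF9 and BMP15, and in 9 granulosa and cumulus genes listed as responsive to oocyte factors. Whether those 9 genes respond to GDF9 in these ovaries was not tested. Their medians were -0.05 and -0.09 at 180 days and -0.17 and -0.01 at 90 days, and limma called 0 of the 20 genes at either age. Estimates were lower for 6 of the 11 receptor and SMAD genes at 180 days (44.1% of all probes) and for 10 at 90 days (50.9%). Per-array medians of these 11 genes at 90 days were 0.09, -0.11 and -0.04 in black and -0.25, -0.19 and -0.30 in LY mice. Estimates of the 9 granulosa and cumulus genes were lower for 5 at each age. At an unadjusted limma p under 0.05, 2 of the 11 receptor and SMAD genes were lower at 180 days (4.91% of all probes) and 3 at 90 days (8.06%). Of the 9 granulosa and cumulus genes 0 and 2 were lower. Smad4, the shared mediator of the pathway, gave -0.34 ± 0.12 (limma adjusted p = 0.305), Smad5 -0.49 ± 0.21 (adjusted p = 0.386) and Bmpr2, the type 2 receptor of both ligands, -0.28 ± 0.14 (adjusted p = 0.472) at 180 days. Among the 9 granulosa and cumulus genes the smallest p values belonged to Slc38a3 (-0.26), Ptgs2 (0.33) and Grem1 (-0.35).

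**Figure D5:**
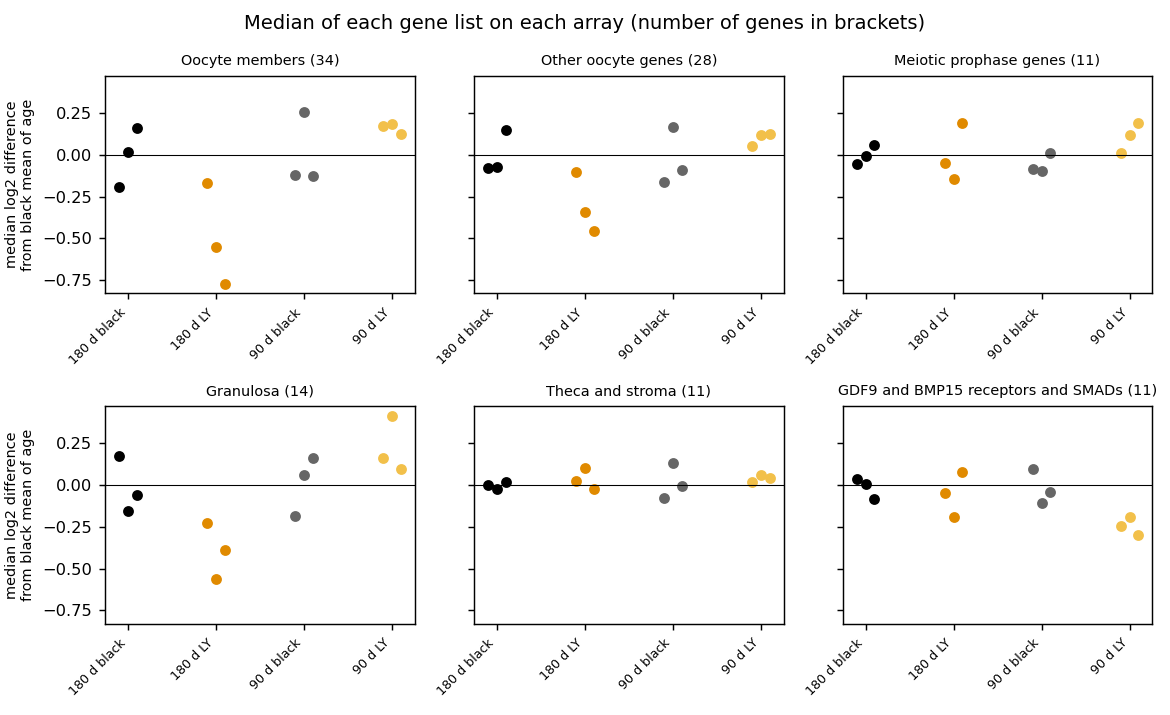
Median log2 difference of each gene list on each array from the black mean of the age (vertical axis), with each point a mouse and the number of genes in brackets. The oocyte set and the granulosa genes lie below 0 in all 180-day LY mice (-0.17, -0.55 and -0.77 for the oocyte set, -0.23, -0.57 and -0.39 for granulosa genes), while theca and stroma genes lie between -0.02 and 0.10 in the 180-day LY mice. The 180-day black mice lie at -0.19, 0.02 and 0.16 for the oocyte set, a range that holds LY mouse 1. For granulosa genes they lie at 0.18, -0.16 and -0.06, above the LY mice.

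Markers of granulosa cells, which surround the oocyte, had lower estimates in 180-day old LY mice too and are given beside the oocyte set. Of 14 granulosa genes tested, 12 had lower estimates in 180-day old LY mice (44.1% of all probes), with a median of -0.40. At 90 days 12 had higher estimates (49.1% of all probes), with a median of 0.25. None was called at either age. At an unadjusted limma p under 0.05, 3 were higher at 90 days (5.21% of all probes) and 3 lower at 180 days (4.91%), the latter being Fst (-0.68), Nr5a2 (-0.49) and Hsd17b1 (-0.51). Their summed level was 298.8 to 385.9 units in 180-day black mice and 220.8 to 289.1 units in LY mice, and 338.5 to 444.5 and 338.5 to 485.3 units at 90 days. The summed level of the oocyte set was 160.9 to 213.5 units in 180-day black mice, 108.3 to 166.6 units in LY mice, 134.5 to 193.2 units in 90-day black mice and 166.3 to 179.5 units in LY mice. No gene of either list was at 0. The order of single mice differed between the lists, since among the 180-day LY mice replicate 2 had the lowest granulosa median (-0.57) and replicate 3 the lowest oocyte median. The part of the granulosa genes in the oocyte values was not tested. Theca and stroma genes had medians of 0.04 and 0.03 at 180 and 90 days over 11 genes, endothelial genes 0.05 and -0.20 over 7, and macrophage genes 0.05 and 0.07 over 5. Luteal genes had medians of 0.49 at 180 and -0.77 at 90 days over 5 genes. Of these, 3 had higher and 2 lower estimates at 180 days (55.9% and 44.1% of all probes). All 5 had lower estimates at 90 days (50.9% of all probes). At an unadjusted limma p under 0.05, 3 luteal genes were higher and 1 lower at 180 days (7.05% and 4.91% of all probes). At 90 days 4 were lower (8.06%) and 0 higher (5.21%). Luteal medians against the black mean were 0.01, -0.01 and -0.01 in 180-day black and 0.39, 0.16 and 0.75 in LY mice. On the 90-day arrays they were -0.04, -0.21 and 0.14 in black and -0.69, -0.82 and -0.46 in LY mice. Surface epithelium genes had medians of -0.21 and -0.65 over 8 genes. Their estimates were lower for 7 at 180 days (44.1% of all probes) and for 8 at 90 days (50.9%). At an unadjusted limma p under 0.05, 1 was lower at 180 days (4.91%) and 7 at 90 days (8.06%). On the 180-day arrays LY mice 1 and 2 (-0.08 and -0.07) lay within the black range and LY mouse 3 (-0.47) below it. On the 90-day arrays the LY mice (-0.67, -0.68 and -0.52) all lay below the black mice (0.10, 0.12 and -0.24). None of the luteal or surface epithelium genes was called at either age. Oviduct and adipocyte genes, which would mark tissue left on the ovary, had medians of 0.05 at 180 days and -0.39 and -0.66 at 90 days, over 5 genes each. Single mice differed widely in the adipocyte genes. Their medians against the black mean were -0.30, -0.35 and 1.08 in 180-day black and -0.002, 0.06 and 0.12 in 180-day LY mice. At 90 days they were 0.97, -1.57 and 0.62 in black and 0.33, -2.14 and -0.18 in LY mice. The part of such tissue in the oocyte values was not tested.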

How the data were processed

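Whole ovaries of 12 mice (4 groups of 3) were measured on 1-colour CodeLink arrays. By the methods, CodeLink software corrected for background, and GeneSpring scaled both genes and slides to a median. The relative intensity values used here were deposited by the authors. Zp3 read 15.0 to 36.4 units and Sohlh1 0.249 to 0.560 units over the arrays, so the values had not been scaled to a median of 1 per gene. Which of the other steps they had passed was not tested. The files leave array medians of 1.00 to 1.04, 166 to 503 missing values and 67 to 144 negative values per array. Here an array's values were divided by its own median and floored at 0.01 units before log2 was taken. The number of arrays limits the precision.

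Among 36227 probes, the annotation used gives 1 gene name for 21615, several for 681 and no name for 13931. A model of 4 group means over the 12 arrays was fitted with limma 3.58.1 (R 4.3.3) to 31359 probes that had a value in every group and reached a mean of 0.2 units in 1 group or more (residual degrees of freedom 8, prior 2.46), with Benjamini-Hochberg adjustment over all of them and a threshold of 0.05. With 3 mice against 3 an exact two-sided permutation test of 1 gene cannot go below 0.1 and was not used. Values on every array are given for Gdf9, Bmp15, the zona genes, Figla and Nobox, for the 6 genes with the smallest p at each age and in the interaction, and for the 5 brightest. Padi6, Pou5f1, Ddx4, H1f8 and second probes were added after their values were seen. The members and lists were chosen with earlier results of these data known. From each other list at most 3 genes are named, by their p at 180 days. The procedure was tested on simulated data. Alternatives covered floor, pseudocount, scaling, quantile normalization, filters, fits within 1 age, variance trend, array weights, the replicate number as a block, the methods' t-test, the choice of probe and leaving out each array. No protein sequences were used here.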

Additional observations from a re-analysis of the deposited data

Results flagged for a closer look

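Sohlh1 and Mos were singled out because their LY mice lay on opposite sides of the black mice at the 2 ages, below all 3 black mice at 180 days and above all 3 at 90 days. The difference of LY from black at 180 days minus that at 90 days was -0.91 for Sohlh1 and -0.60 for Mos on the log2 scale. In the test of this difference the limma adjusted p was 0.178 for Sohlh1 and 0.234 for Mos, so neither passed. Both probes were dim, at 0.249 to 0.560 units for Sohlh1 and 0.502 to 0.880 units for Mos, above the limit of sensitivity of 0.2 units on every array.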

How the results depend on the processing

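Under every alternative of the limma fit 0 genes of the set were called for the difference of LY from black at 180 or 90 days or for the interaction, and the lowest adjusted p of a gene described on every array at 180 days was 0.0698, for Zp3. The methods' t-test gave 0 genes after adjustment. Its counts at an unadjusted p under 0.05, 6 at 180 days and 1 at 90 days, are given here without the share of all probes and are not read further. With 1 array left out at a time, the median of the set ran from -0.68 to -0.36 at 180 days, from 0.09 to 0.29 at 90 days and from -0.06 to 0.12 between ages, and 14 to 19 genes were called between ages. Leaving out arrays moved the count of genes without overlap below black at 180 days between 9 and 26 and that at 90 days between 1 and 2, and quantile normalization made the latter 0. A filter that asked for a group mean of at least 1 unit made the former 6 (9.60% of all probes). The count of genes lower at 180 days at an unadjusted p under 0.05, a result added after seeing the data, ran from 4 to 24 with 1 array left out. With 1 array left out, single genes that were not called changed sign. At 180 days Zp1 ran from -0.00087 (without black replicate 1) to 0.078 and Nobox from -0.21 to 0.028 (without black replicate 3). At 90 days Bmp15 ran from -0.18 (without black replicate 1, and -0.14 without LY replicate 2) to 0.24, Zp2 from -0.087 (without black replicate 3, with -0.069 and -0.064 without black replicate 1 and LY replicate 3) to 0.19, and Zp3 from -0.028 (without black replicate 3, and -0.0026 without LY replicate 1) to 0.23. Nobox ran from -0.058 (without black replicate 2) to 0.19, Nlrp14 from -0.079 to 0.39 and Omt2a from -0.051 to 0.29, the lowest of the last 2 without black replicate 3. The cause was not tested, beyond the smaller number of arrays. The other 1084 values of single genes kept their sign and side of the threshold.

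Replicate numbers recur in the groups. Deviations of same-numbered black and LY mice correlated at -0.006, -0.070 and -0.054 at 180 days and at 0.149, 0.073 and 0.052 at 90 days. Those of differently numbered mice correlated at -0.010 to 0.061 at 180 days. At 90 days they correlated at -0.160 to 0.116, where 0.116 was the only positive value. The numbers were not taken as pairs, and whether a shared number marks shared processing was not tested. With the replicate number as a block 8 genes in place of 20 were lower at 180 days at an unadjusted p under 0.05, and 0 were called. Probes near 0.2 units, such as Sohlh1 and Nlrp4f, are limited by signal over background.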
